A study of Mus musculus with 2 samples.

Results

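The 10 genes described here encode milk proteins and proteins of the milk fat globule, and they were taken by gene symbol from the 49492 genes of the deposited count table: the caseins Csn1s1, Csn1s2a, Csn2 and Csn3, the whey proteins Lalba and Wap, and the globule proteins Btn1a1, Xdh, Mfge8 and Plin2. All 10 symbols were found. RNA was sequenced from 3D matrix-gel cultures of primary mammary basal cells (CD24 positive, CD29 high), which had been sorted by FACS from the glands of adult female wild-type mice. The control library (no treatment) and the TNF-α library (10 ng/mL recombinant mouse TNF-α) were both made after 10 days of culture, and the sources used here do not say how many animals gave the cells. Both cultures shared a medium with EGF and insulin-transferrin-selenium, and the labels name no prolactin for either library, although the hormone was added to other cultures of the study. With 1 library per condition no difference has a replicate check, and differences between single cultures cannot be told apart from an effect of TNF-α.

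The control library held 44462275 counts and the TNF-α library 53487087. CPM below are counts scaled to a common library size, with sizes adjusted by the TMM method (TNF-α size 1.20 times that of the control). In these units 3 counts, the floor used for genes at 0, correspond to 0.0673 CPM in the control and 0.0562 CPM with TNF-α. Log2 ratios are TNF-α to control, with a prior count of 2 added, for every gene whose counts in both libraries came to 10 or more. Each 95% interval is a Clopper-Pearson interval of the share of reads from the TNF-α library turned into a log2 ratio. With 1 library per condition it covers counting error only. PCR copies of a molecule could not be recognised, which may make the interval too narrow. It would be wider if both ends of a read pair were counted. Genes with 2 counts outnumbered genes with 1 count, 2172 against 618 in the control and 2350 against 645 with TNF-α. The intervals of all genes, with many counts or few, may therefore be too narrow. With halved counts that of Mfge8, for example, ran from -1.23 to -1.15. In bulk RNA, fewer cells of a type and less RNA per cell cannot be told apart.

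Milk proteins are made by the secretory alveolar cells of the luminal lineage. Prolactin, acting through its receptor, Jak2 and Stat5, drives their transcription together with glucocorticoid and insulin signals. Caseins assemble into micelles with Csn3 (κ-casein) at the surface, and α-lactalbumin, the product of Lalba, is the partner of the galactosyltransferase B4galt1 in lactose synthesis. Milk fat leaves the cell as lipid droplets coated with Plin2 and wrapped in apical membrane, in which Btn1a1 and xanthine oxidoreductase (Xdh) bind the droplet. Mfge8 is secreted, sits on the globule membrane and also bridges phosphatidylserine on dying cells to integrins.

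The members did not move in 1 direction. Csn1s1 and Csn3 were more than 2-fold higher after TNF-α treatment, Lalba, Btn1a1 and Mfge8 were more than 2-fold lower, and Xdh and Plin2 lay close to no change. Csn1s2a and Csn2 had 0 counts in both libraries and Wap had 1 count in all. Among the 7 members with at least 10 counts, 2 were thus past 2-fold upward and 3 past 2-fold downward. Of all 20771 genes compared, 8.56% were more than 2-fold higher and 6.62% more than 2-fold lower. Each of the 7 members had over 100 counts summed over both libraries. With that minimum (15122 genes) the shares were 4.77% higher and 3.6% lower. The median log2 ratio of the 7 members was 0.16, and that of all genes compared was 0.0038, with members far from it on both sides.

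**Figure D1:**
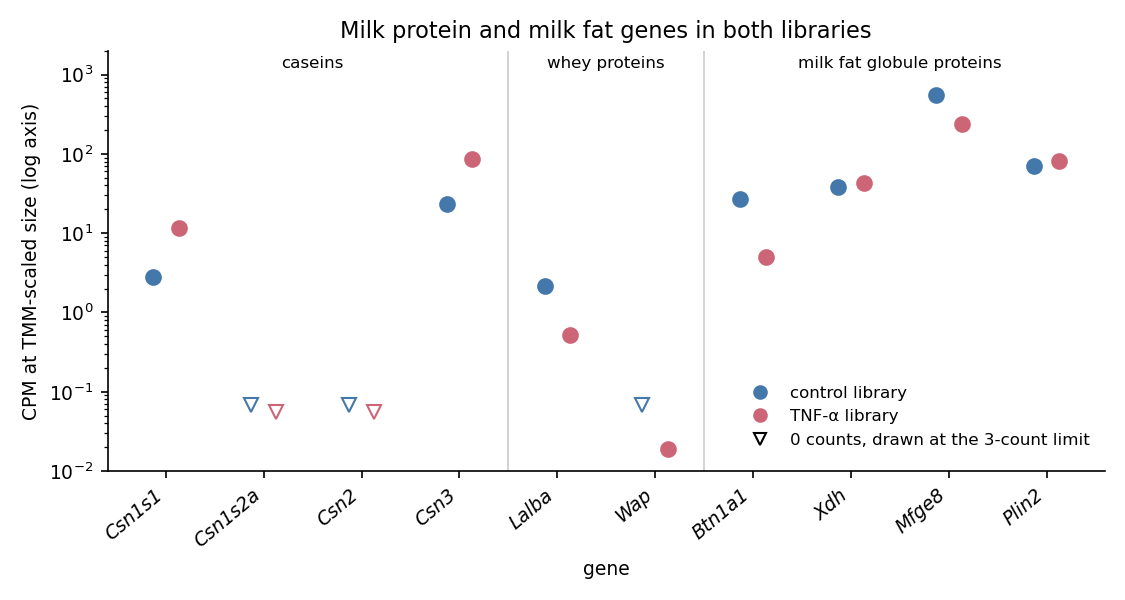
Level of each gene in the control (blue) and TNF-α (red) library, in CPM at the TMM-scaled library size on a log axis, grouped by role, with 1 library per condition and no error bars. Open triangles mark genes with 0 counts, drawn at the level of 3 counts, and the point of Wap is 1 count. The reader should see Csn1s1 and Csn3 higher with TNF-α, Lalba, Btn1a1 and Mfge8 lower, and Xdh and Plin2 nearly level.

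**Figure D2:**
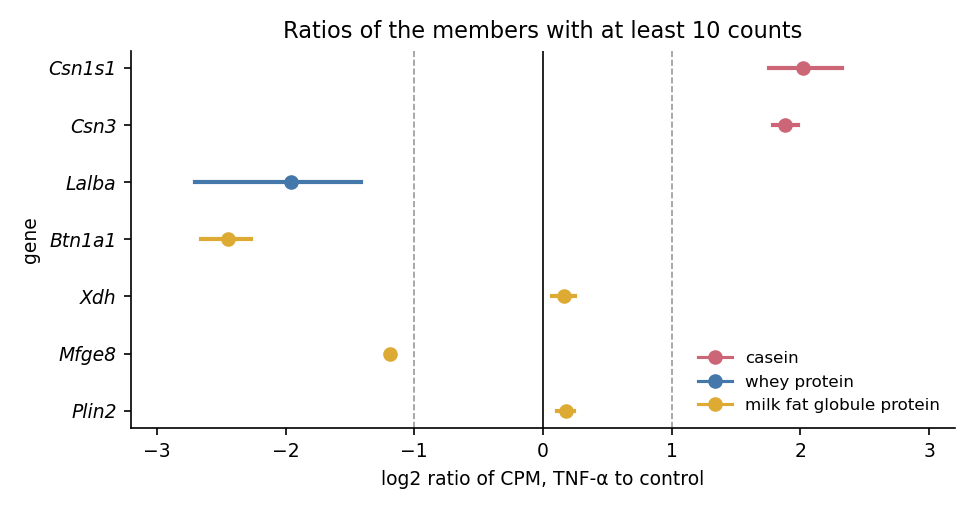
Log2 ratio of CPM, TNF-α to control, for the 7 genes with at least 10 counts, with bars for the 95% interval of counting error and dashed lines at a 2-fold difference. The 2 caseins lie near 2 on this scale, Lalba and Btn1a1 near or below -2, Mfge8 at -1.19, and Xdh and Plin2 at 0.16 and 0.18.

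Among the caseins, the reads came almost entirely from Csn3. Csn3 lies on chromosome 5 of GRCm38 from 87925579 to 87932665 on the plus strand. It had 1039 counts (23.3 CPM) in the control library and 4592 counts (86.1 CPM) with TNF-α, a log2 ratio of 1.88 (95% interval 1.79 to 1.98). Divided by its summed exon length of 4152 bases, its level was 5.61 CPM per kb in the control, above 65.9% of the genes compared, and 20.7 CPM per kb with TNF-α, above 87.0% of them. Csn1s1, which encodes αs1-casein, lies on the same strand at the other end of the cluster, from 87666208 to 87682578. It had 126 counts (2.83 CPM) in the control and 618 counts (11.6 CPM) with TNF-α, a log2 ratio of 2.02 (95% interval 1.76 to 2.32). The intervals of Csn1s1 and Csn3 overlap, and the level of Csn3 per kb was 12.4 times that of Csn1s1 in the control and 11.2 times with TNF-α. The share of casein counts that came from Csn3 was 89.2% without and 88.1% with TNF-α.

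The other 2 casein members were not detected at this depth. Csn2, which encodes β-casein, had 0 counts in both libraries, which allows up to 0.0673 CPM in the control and 0.0562 CPM with TNF-α. Its annotated exons cover 6926 bases of a gene 7.007 kb wide (chromosome 5, 87692624 to 87699630, minus strand), so nearly the whole gene was open to counting. Csn1s2a (87774567 to 87788797), an αs2-type casein gene, also had 0 counts in both libraries, with the same upper limits. No ratio can be given for either gene.

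The casein genes form a cluster on chromosome 5 in which 13 annotated genes lie wholly within the 266 kb from the start of Csn1s1 to the end of Csn3. Of these, 7 had 0 counts in both libraries and 6 had at least 10 counts summed. The genes at the ends were higher with TNF-α, while genes between them were at 0, near 0 or lower. Only 10.0 kb separate the end of Csn1s1 from the 3′ end of Csn2, which lies on the opposite strand. Csn1s2b, another αs2-type casein gene, had 4 counts in the control and 6 with TNF-α, and its interval ran from -1.75 to 2.59 on the log2 scale. Odam, which encodes a secreted protein known from ameloblasts, had 46 counts in the control and 10 with TNF-α, a log2 ratio of -2.23 (95% interval -3.61 to -1.45). Prr27, a proline-rich protein gene, had 76 counts in the control and 2 with TNF-α, with an interval of the log2 ratio from -8.58 to -3.61. The gene model Gm42794, with 143 and 6 counts, overlaps an exon of Prr27 on the opposite strand, and since strand use in the counting is not given in the sources used here, reads of these genes cannot be told apart. None of the 10 members had an exon that overlaps another gene of the count table.

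**Figure D3:**
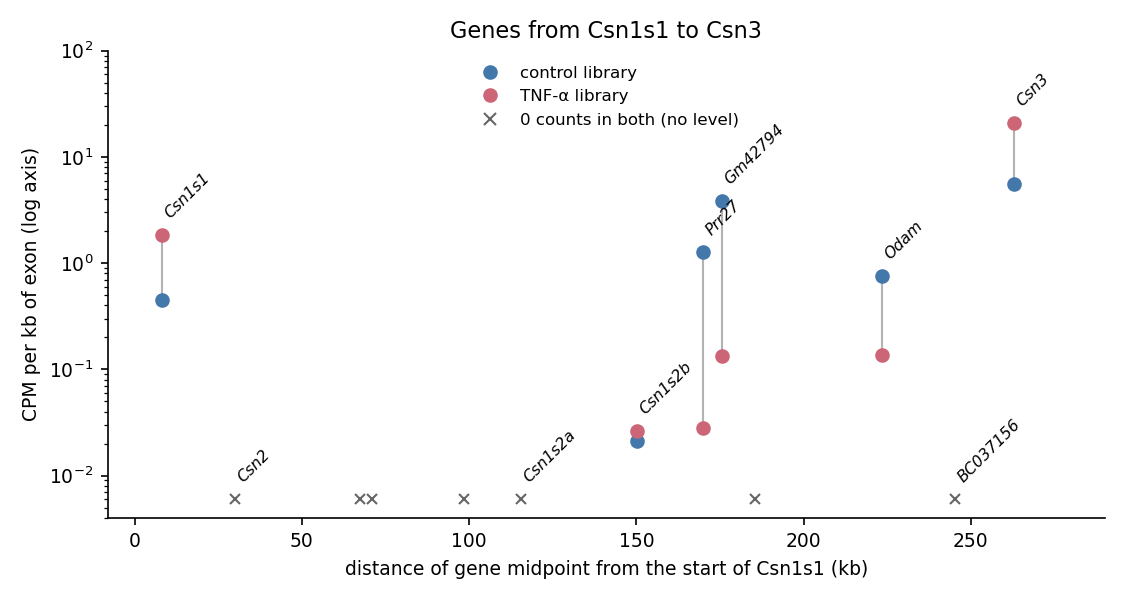
Level of the genes between Csn1s1 and Csn3, in CPM per kb of exon on a log axis, against the distance of the gene's midpoint from the start of Csn1s1 in kb, in the control (blue) and TNF-α (red) library. Grey lines join the libraries for 1 gene and crosses mark the 7 genes with 0 counts in both, which have no level. The genes at the ends, Csn1s1 and Csn3, are higher with TNF-α, and Prr27, Gm42794 and Odam between them are lower.

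Because Csn1s1 had reads and its neighbour Csn2 had none, the 250 bases before the RefSeq start of each are shown beside those of Lalba, which was lower. The sequences are from the RefSeq promoter windows on GRCm38.p6, which held 7 of the 10 members and not Csn3, Btn1a1 and Xdh. They are written 5′ to 3′ on the strand of the gene, with matches to the STAT motif TTCNNNGAA (both strands searched) in capitals.

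Csn1s1 (chr5:87665958-87666207, plus strand): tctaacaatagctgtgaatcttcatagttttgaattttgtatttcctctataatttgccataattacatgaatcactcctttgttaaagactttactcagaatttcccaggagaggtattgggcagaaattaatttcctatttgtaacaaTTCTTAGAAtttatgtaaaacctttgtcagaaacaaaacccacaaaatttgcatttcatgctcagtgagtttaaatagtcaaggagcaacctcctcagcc

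Csn2 (chr5:87699426-87699675, minus strand): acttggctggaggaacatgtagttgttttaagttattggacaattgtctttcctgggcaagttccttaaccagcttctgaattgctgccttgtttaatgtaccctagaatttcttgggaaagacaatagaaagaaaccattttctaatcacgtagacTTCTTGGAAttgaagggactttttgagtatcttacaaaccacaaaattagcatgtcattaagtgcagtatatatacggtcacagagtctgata

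Lalba (chr15:98482684-98482933, minus strand): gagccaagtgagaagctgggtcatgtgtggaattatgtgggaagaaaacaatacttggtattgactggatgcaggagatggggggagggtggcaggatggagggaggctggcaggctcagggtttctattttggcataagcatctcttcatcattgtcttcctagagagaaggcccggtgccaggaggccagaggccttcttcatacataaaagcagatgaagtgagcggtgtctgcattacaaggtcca

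Csn1s1 and Csn2 each held 1 STAT motif, beginning 100 and 93 bases before the RefSeq start. For Csn1s1 that start is also the start of the gene as counted. For Csn2 it lies at 87699425, inside the counted gene, which reaches 87699630, so the motif falls within the counted span. The windows of Lalba, Csn1s2a, Wap, Mfge8 and Plin2 held none, and 7.02% of all 32851 promoter windows of this length held at least 1. The core ACGTG of the HIF motif was found in the window of Csn2 alone among the 7 (16.6% of all windows), and the NF-κB consensus in that of Plin2 alone (7.25%). TATAAA was in none of the 7 windows and in 12.4% of all. The STAT motif was in the windows of Csn1s1, which had reads, and of Csn2, which had 0 counts. Its part in their levels was not tested. These matches describe letters in short windows, and binding was not measured.

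Of the whey protein genes, Lalba was lower with TNF-α and Wap was not measurable. Lalba (chromosome 15, 98480400 to 98482683, minus strand) had 96 counts (2.15 CPM) in the control library and 28 counts (0.525 CPM) with TNF-α. Its log2 ratio was -1.96 (95% interval -2.70 to -1.42), a level 3.88-fold lower with TNF-α. Per kb, Lalba stood at 2.94 CPM in the control and 0.716 CPM with TNF-α, which placed it above 52.8% and above 29.5% of the genes compared. Lalba rests on the fewest reads of the 7 members and has the widest interval. Wap, the whey acidic protein gene (chromosome 11, 6635482 to 6638637, minus strand), had 0 counts in the control and 1 with TNF-α, which is under the floor of 3 counts in both libraries, and no ratio is given. There were 10.8 Csn3 counts for each Lalba count without TNF-α and 164 with it.

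Of the milk fat globule genes, Btn1a1 and Mfge8 were lower with TNF-α, and Xdh and Plin2 lay close to no change. Btn1a1, the butyrophilin of the globule membrane, lies on chromosome 13 from 23456992 to 23465901 on the minus strand. It had 1212 counts (27.2 CPM) in the control and 264 counts (4.95 CPM) with TNF-α, a log2 ratio of -2.45 (95% interval -2.66 to -2.27). This was a 5.46-fold lower level, and 0.929% of the 20771 genes had a lower ratio. Xdh, whose product binds butyrophilin in the globule coat and oxidises purines to uric acid, lies on chromosome 17 from 73883908 to 73950182 on the minus strand. It had 1691 counts (37.9 CPM) in the control and 2264 counts (42.4 CPM) with TNF-α, a log2 ratio of 0.16 (95% interval 0.07 to 0.25). The number of Btn1a1 counts per Xdh count was 0.717 in the control and 0.117 with TNF-α.

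Mfge8 (chromosome 7, 79133768 to 79149060, minus strand) had the highest level per kb of the 10 genes in both libraries, at 117 CPM per kb in the control and 51.1 with TNF-α. It had 24404 counts (548 CPM) in the control and 12802 counts (240 CPM) with TNF-α, a log2 ratio of -1.19 (95% interval -1.22 to -1.16). Per kb it ranked 415 among the 20771 genes in the control and 1065 with TNF-α. Plin2, the perilipin that coats lipid droplets in most cell types, lies on chromosome 4 from 86648386 to 86670060 on the minus strand. It had 3174 counts (71.2 CPM) in the control and 4292 counts (80.4 CPM) with TNF-α, a log2 ratio of 0.18 (95% interval 0.11 to 0.24). For Xdh and Plin2 the intervals of counting error lay above 0, but the differences were 1.12-fold and 1.13-fold, and the spread between cultures was not measured.

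Sums by role were compared without a prior count, unlike the ratios of single genes. The casein counts were 3.74-fold higher with TNF-α, at 26.1 CPM in the control and 97.6 CPM with TNF-α (log2 ratio 1.90, 95% interval 1.81 to 1.99). The whey protein sum was 3.96-fold lower, at 2.15 and 0.543 CPM (log2 ratio -1.99, 95% interval -2.64 to -1.37). Lalba gave 96 of its 96 counts in the control and 28 of 29 with TNF-α. The globule protein sum was 684 CPM in the control and 368 CPM with TNF-α, a log2 ratio of -0.90 (95% interval -0.92 to -0.87). Without Mfge8 that sum was 136 and 128 CPM, a log2 ratio of -0.09, so the lower sum rests on Mfge8. Mfge8 gave 76.9% of the counts of all 10 members in the control and 51.5% with TNF-α, while Csn3 gave 3.27% and 18.5%. Together the 10 members took 0.0714% of all counts without TNF-α and 0.0465% with it.

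Genes of the lactogenic signalling pathway were read beside the members, from a list of 28 genes that all had at least 10 counts. Of these, 1 was past 2-fold higher and 5 past 2-fold lower, with a median log2 ratio of -0.23. Of all 20771 genes compared, 8.56% were past 2-fold higher and 6.62% past 2-fold lower. These shares also apply beside the lists that follow. The prolactin receptor and Stat5a were among the lower genes. Prlr, the prolactin receptor, had 5767 counts in the control and 3119 with TNF-α, a log2 ratio of -1.15 (95% interval -1.21 to -1.08). Stat5a, which carries the prolactin signal to the casein promoters, fell from 5462 counts to 2942, giving a log2 ratio of -1.15 (95% interval -1.22 to -1.09). Stat5b, with 3463 and 2570 counts, stayed within 2-fold at -0.69. Elf5, an ETS factor of alveolar differentiation, had 2721 and 2105 counts and a log2 ratio of -0.63. Thus Csn1s1 and Csn3 were higher in the library in which Prlr and Stat5a transcripts were lower, and Lalba and Btn1a1 were lower in the same library.

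The remaining genes of this list past 2-fold were receptors, an adaptor and a ligand. Ghr, the growth hormone receptor, had 3408 and 1643 counts, a log2 ratio of -1.31. Irs1, the insulin receptor substrate, had 5917 and 2981 counts, a log2 ratio of -1.25. Erbb4, a receptor for neuregulins, was the lowest of the list, with 172 counts against 74 and a log2 ratio of -1.45. Tnfsf11, which encodes RANKL, was the highest, but it rests on 2 counts in the control and 16 with TNF-α (95% interval 0.65 to 5.90 on the log2 scale). Jak2, the kinase at the prolactin receptor, had a log2 ratio of 0.68. Cish, a feedback inhibitor that Stat5 induces, had 100 and 195 counts and a log2 ratio of 0.69. Of the Socs genes in the list, which also encode feedback inhibitors, Socs3 had 3956 and 2992 counts, a log2 ratio of -0.66. Socs1 (-0.32, 95% interval -1.57 to 0.83) and Socs2 (0.10, 95% interval -0.05 to 0.26) had intervals that included 0. The values are transcript amounts, and phosphorylation of Stat5 was not measured.

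Other genes of the secretory alveolar cell lay mostly within 2-fold, with some past it in each direction. Of 20 such genes 18 had at least 10 counts, with 3 more than 2-fold higher, 2 more than 2-fold lower and a median log2 ratio of 0.13. Trf, the transferrin gene, had 7737 counts in the control and 28764 with TNF-α, a log2 ratio of 1.63 (95% interval 1.60 to 1.67). Pthlh, which encodes parathyroid hormone-like hormone, was the highest of the list at 2.02, with 106 and 522 counts. Lpo, the lactoperoxidase gene, had 4 and 21 counts, giving a log2 ratio of 1.73 (95% interval 0.57 to 4.14). Folr1, a folate receptor gene, was the lowest, with 595 and 195 counts and a log2 ratio of -1.86. Atp2b2, the plasma membrane calcium pump that moves calcium into milk, had 62 and 23 counts, a log2 ratio of -1.60. Glycam1 and Lao1 had 0 counts in both libraries.

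For the synthesis of milk fat, 23 of 24 listed genes had at least 10 counts, with 1 more than 2-fold higher, 2 more than 2-fold lower and a median log2 ratio of 0.01. Dgat2, which makes triglyceride, was the highest at 1.17, with 120 counts in the control and 327 with TNF-α. Pparg, a nuclear receptor of fat storage, was the lowest at -2.36, with 102 and 22 counts. Lpl, which frees fatty acids from lipoproteins, had 715 and 372 counts, a log2 ratio of -1.20. Among 15 further lipid droplet genes, 13 had at least 10 counts, of which 12 lay below 0 and 3 were more than 2-fold lower, with a median of -0.35. These were Cidea (234 and 82 counts, log2 ratio -1.75), which enlarges droplets, the perilipin gene Plin4 (86 and 31 counts, -1.66) and Hilpda (166 and 93 counts, -1.08), an inhibitor of triglyceride breakdown. Lipe, which encodes hormone-sensitive lipase, was the highest at 0.05. Of the 12 genes below 0, Plin5, Cideb, Abhd5 and Fitm2 had intervals that included 0. Among all 20771 genes compared, 10265 lay below 0 and 6.62% were more than 2-fold lower. Of the other perilipin genes, Plin3 and Plin5 had log2 ratios of -0.10 and -0.35 and Plin1 had 0 counts in both libraries, so Plin2 was the 1 perilipin gene with a ratio above 0.

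**Figure D4:**
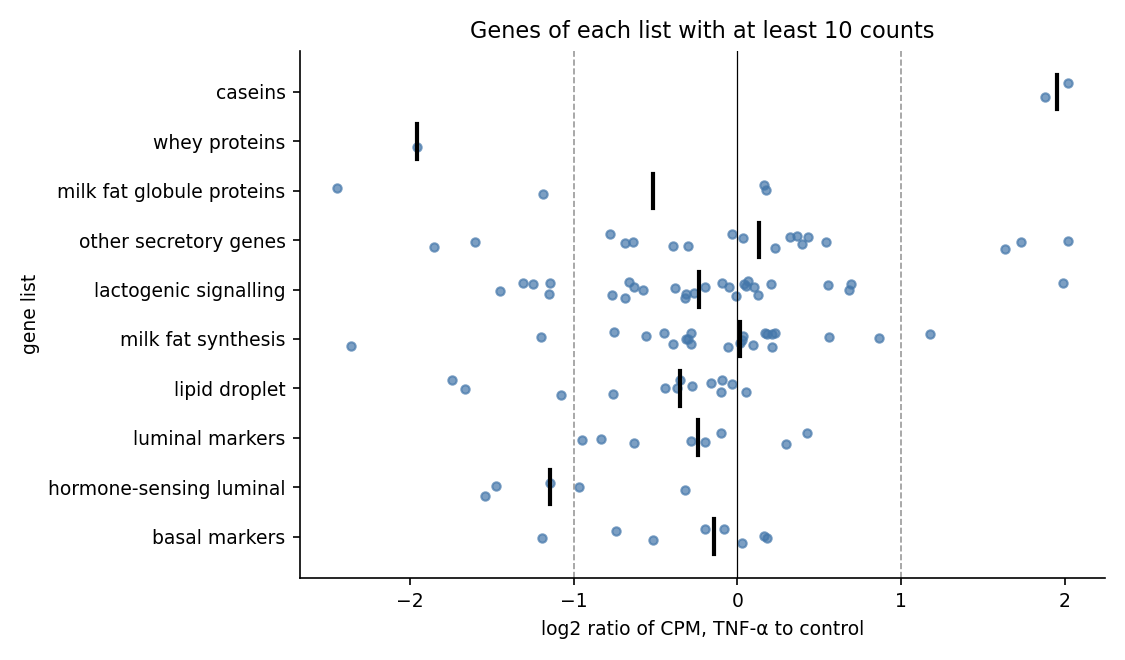
Log2 ratio of CPM, TNF-α to control, of each gene with at least 10 counts in the lists named on the vertical axis, with a black bar at the median of the list and dashed lines at a 2-fold difference. Points are shifted up or down at random so that they can be seen. The 2 caseins lie near 2, the medians of the other secretory and milk fat synthesis genes lie near 0, and that of the hormone-sensing luminal markers lies at -1.15.

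Markers of the cell types that the cultures could hold are given beside these results, and their part in them was not tested. Basal and luminal keratins were both abundant, with Krt14 at 5155 CPM in the control and 4871 CPM with TNF-α and Krt8 at 1213 and 1132 CPM, so markers of both lineages were present. The 8 luminal markers had a median log2 ratio of -0.24, from -0.95 for Kit to 0.42 for Cldn3, and none was past 2-fold. The 8 basal markers had a median of -0.14, and Oxtr, the oxytocin receptor of myoepithelial cells, was past 2-fold lower at -1.19. All 5 markers of hormone-sensing luminal cells lay below 0, and Esr1 (-1.48), Pgr (-1.54) and Prlr (-1.15) were past 2-fold. Of the adipocyte markers, Adipoq had 2 counts in the control and 0 with TNF-α and Plin1 had 0 in both, while Fabp4 had 206 and 146 counts and Lep 127 and 10. The 8 adipocyte markers summed to 7.63 and 3.15 CPM, most of it from Fabp4 and Lep. The 8 leukocyte markers summed to 6.22 and 4.82 CPM, with Cd3e at 0 in both libraries and Adgre1 at 0 and 2 counts. The 4 endothelial markers summed to 7.07 and 6.67 CPM. The 6 fibroblast markers summed to 391 and 416 CPM, most of it from Col1a1 (114 and 119 CPM) and Col1a2 (207 and 229 CPM). Dcn, at 4.13 and 10.9 CPM, was the 1 past 2-fold, with a log2 ratio of 1.39. Pdgfrb was the lowest of them, at -0.93.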

How the data were processed

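RNA-seq libraries of TNF-α treated and control basal cell cultures were compared. The authors deposited raw counts of reads per gene, not normalized, with exon coordinates, strand and summed exon length. The submitters' processing notes name GRCm38 and mm10, and the aligner, counting tool and strand setting are not given in the sources used here. Of 47240 gene names shared with GENCODE M21 (GRCm38), 90.9% had the same coordinates. Members' coordinates are those of the table.

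From the counts, sizes were scaled by TMM (edgeR 4.0.16, R 4.3.3), and log2 ratios of CPM with a prior count of 2 were computed for 20771 genes with at least 10 counts summed. With 1 library per condition no dispersion could be estimated, so no test was fitted, and a gene past 2-fold is a description. Alternatives were other scalings (DESeq2 1.42.0 among them), filters, prior counts, folds, halved counts, removal of ribosomal RNA and mitochondrial genes and a lowess correction (span 0.3) on GC content and length. The filter of 100 counts was added after the data were seen. The calculation was checked on simulated data.

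The members, gene lists and motifs were chosen with earlier results of these data known. Genes named are the members, genes between Csn1s1 and Csn3, genes past 2-fold and the extremes of each list, Prlr, Stat5a, Stat5b, Elf5 and cell type markers. Jak2, Cish, Socs1, Socs2, Socs3, Plin3, Plin5, Cideb, Abhd5, Fitm2, Axl, Tyro3, Mertk, Itgav, Itgb3, Itgb5 and Pros1 were chosen after their values were seen. Python 3.11.15, pandas 2.3.3 and scipy 1.17.1 were used.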

Additional observations from a re-analysis of the deposited data

How the results depend on the processing

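No paired analysis was possible because there was a single library for each of the conditions, and leaving out a replicate was likewise not an option. The ratios of the 7 members kept their direction under all 11 alternatives, and their 2-fold calls changed only with the fold: at 4-fold, 1 member was higher (Csn1s1) and 1 lower (Btn1a1). That split depends on the setting, since Csn1s1 and Lalba lie close to 4-fold. Csn1s1 had a log2 ratio of 1.996 with a prior count of 5. Lalba had -2.02 with a prior count of 0.5 and -2.12 with GC content and length corrected for. With GC content and gene length corrected for, the log2 ratio of Mfge8 was -1.09, outside its interval for counting error, and the cause was not tested. The other 76 of 77 member values stayed within their intervals. The widest range was that of Lalba, from -2.12 to -1.85. With halved counts, which apply if both ends of a read pair were counted, its interval ran from -3.01 to -1.15. Even low counts were in excess (2172 genes at 2 counts and 618 at 1 in the control).

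The numbers of all genes past 2-fold, 1777 higher and 1375 lower, followed the filter and the fold. They were 2695 and 2981 with no filter (27108 genes), 836 and 659 with at least 1 CPM, 721 and 544 with at least 100 counts, 3210 and 2846 at 1.5-fold, and 540 and 342 at 4-fold.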

Other observations

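The partners of Mfge8 and Xdh outside milk secretion were also read, since both proteins have further roles. Of 10 genes for the clearance of dying cells, Gas6 was past 2-fold lower and Cd14 past 2-fold higher, and the median log2 ratio was -0.16. Gas6, which like Mfge8 bridges phosphatidylserine to a receptor on the engulfing cell, had 27891 counts in the control and 7506 with TNF-α, a log2 ratio of -2.15 (95% interval -2.19 to -2.12). Its receptor genes differed in direction, with log2 ratios of 0.57 for Axl, -0.71 for Tyro3 and -0.69 for Mertk. The integrin genes Itgav, Itgb3 and Itgb5 had 0.22, 0.03 and -0.35. Pros1, also in this list, had 1501 and 1848 counts and a log2 ratio of 0.04 (95% interval -0.06 to 0.14). Cd14, with 276 and 756 counts, had a log2 ratio of 1.19. Of 10 genes of purine breakdown 0 were past 2-fold, from -0.47 for Aox1 to 0.83 for Ada, with a median of 0.02.

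Of 7 relatives of Btn1a1, Btnl1, Btnl2 and Btnl4 had 0 counts in both libraries, and 3 had at least 10 counts. The lowest, Btnl9, had 8 and 2 counts and an interval from -5.53 to 0.07, and the highest, Btn2a2, had 6 and 12 counts and an interval from -0.79 to 2.44, so no change was detectable at this depth. Among the adipocyte markers, Lep had 127 counts in the control and 10 with TNF-α (log2 ratio -3.66, 95% interval -5.02 to -3.00), and Car3 had 0 and 10 counts.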
